A study of Mus musculus with 6 samples.

Results

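The genes that start actin filaments were followed across mouse oocyte cytoplasm and blastocysts. The members were 10 genes of 27745 gene names on the array, chosen by name, and they were read by 15 of 41174 probes. Fmn2, Spire1, Spire2 and Diap1 formed the formin and Spire group, with 8 probes. Actr2, Actr3, Arpc1a, Arpc2, Arpc3 and Arpc5 formed the Arp2/3 group, with 7 probes. RNA was measured on 6 single-colour Agilent arrays, all from B6C3 F1 mice. There were 2 arrays of climacteric blastocysts, 2 of young blastocysts, 1 of climacteric ooplasts and 1 of young ooplasts. Climacteric is the label for reproductively old females, and no age in numbers is given. An ooplast is oocyte cytoplasm without its chromosomes, and a blastocyst is the embryo whose outer trophectoderm encloses the inner cell mass. Neither the origin of the blastocysts nor the number pooled for an array is given in the labels.

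Actin nucleators assemble the first few actin subunits, the slow step in filament growth. Formins and Spire proteins make straight filaments. In the mouse oocyte Fmn2 and the Spire proteins build the cytoplasmic actin mesh, through which the spindle moves to the cortex before the polar body is extruded, and Fmn2-null females extrude few polar bodies. Diap1, now named Diaph1, is a formin that extends straight filaments. The Arp2/3 complex instead starts a new filament as a branch on the side of an old one, under the control of the WASP, WAVE and WASH proteins. Actr2 and Actr3 encode its actin-like subunits Arp2 and Arp3, and the Arpc genes encode the subunits that hold them.

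Each level below is log2 of the deposited signal minus the 75th percentile of its own array, so a negative level lies below that percentile. Levels of different probes were not compared, because probes differ in how brightly they read the same amount of RNA. The 75th percentile was 721 to 1111 units on the blastocyst arrays, against 235 to 238 units on the ooplast arrays. Of 43379 non-control spots, 49.9% to 57.3% were well above background on the blastocyst arrays, against 42.2% to 42.4% on the ooplast arrays. The labelled cell types carried their oocyte and trophectoderm markers. All 8 trophectoderm markers were above background on every blastocyst array, against 4 to 5 on the ooplast arrays. Of 10 oocyte markers 4 to 6 were above background on a blastocyst array, against 9 on each ooplast array, and their signals, each divided by the array's 75th percentile, summed to 2.78 to 3.81 in blastocysts, against 4369 to 4569 in ooplasts. All 6 inner cell mass markers on the array were above background on every blastocyst array, against 4 on each ooplast array. Their sums overlapped, at 94.0 to 139.9 in blastocysts and 74.0 to 106.8 in ooplasts. Cumulus and granulosa markers were above background for 6 to 8 of 13 genes on the blastocyst arrays, against 6 to 7 on the ooplast arrays, with sums of 20.5 to 25.2 in blastocysts and 83.4 to 88.9 in ooplasts. These sums do not stand for each gene of the list. Cyp19a1 stood at -1.55 to -0.89 in blastocysts and at 6.22 to 6.30 in ooplasts. Amhr2 went the other way, at 2.94 to 4.05 in blastocysts and at -2.26 to -1.87 in ooplasts. Each array reads pooled material, so a change in the share of cells that hold an RNA and a change in RNA per cell cannot be told apart.

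The stretches just upstream of 4 Arp2/3 genes that passed as higher in blastocysts, and of Fmn2, which passed as lower, are shown because their RNAs changed between the stages. They are RefSeq sequences of GRCm38.p6, each read 5′ to 3′ on the gene's own strand up to the annotated start. Capitals mark CCGGAAG, the core bound by ETS-type transcription factors, or its reverse complement CTTCCGG. The windows are chr1:125435728-125435977 on the minus strand for Actr3, chr5:122391628-122391877 on the plus strand for Arpc3, chr5:145083619-145083868 on the plus strand for Arpc1a, chr1:152766292-152766541 on the plus strand for Arpc5 and chr1:174501575-174501751 on the plus strand for Fmn2.
Actr3: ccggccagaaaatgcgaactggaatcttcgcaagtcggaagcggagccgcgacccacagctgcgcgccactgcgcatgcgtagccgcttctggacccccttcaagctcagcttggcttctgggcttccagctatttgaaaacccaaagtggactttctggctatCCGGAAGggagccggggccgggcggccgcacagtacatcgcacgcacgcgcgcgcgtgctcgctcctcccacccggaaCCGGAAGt
Arpc3: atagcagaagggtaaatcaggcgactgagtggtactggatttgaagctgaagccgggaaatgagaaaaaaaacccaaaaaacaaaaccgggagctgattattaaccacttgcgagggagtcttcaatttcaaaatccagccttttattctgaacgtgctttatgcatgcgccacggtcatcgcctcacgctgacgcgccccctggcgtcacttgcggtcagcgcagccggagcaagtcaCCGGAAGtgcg
Arpc1a: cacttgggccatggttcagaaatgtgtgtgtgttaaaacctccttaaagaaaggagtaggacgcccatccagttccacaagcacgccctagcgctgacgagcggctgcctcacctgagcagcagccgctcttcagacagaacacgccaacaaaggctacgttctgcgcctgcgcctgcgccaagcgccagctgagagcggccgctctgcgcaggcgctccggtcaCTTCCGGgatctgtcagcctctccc
Arpc5: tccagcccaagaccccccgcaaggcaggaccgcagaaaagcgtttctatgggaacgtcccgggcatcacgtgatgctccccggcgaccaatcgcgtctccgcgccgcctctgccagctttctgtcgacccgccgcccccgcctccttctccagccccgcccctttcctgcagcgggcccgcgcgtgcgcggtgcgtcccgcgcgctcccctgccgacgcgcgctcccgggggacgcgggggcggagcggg
Fmn2: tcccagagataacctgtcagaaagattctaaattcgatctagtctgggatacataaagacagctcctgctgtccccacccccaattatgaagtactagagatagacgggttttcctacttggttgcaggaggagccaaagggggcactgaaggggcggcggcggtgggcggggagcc

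RefSeq windows were found for 8 of the 10 members, and the CCGGAAG core stood, on either strand, in 4 of them. It was in the windows of Actr2, Actr3, Arpc1a and Arpc3, with 2 copies in Actr3, and not in those of Arpc2, Arpc5, Fmn2 or Spire2. Over the 32851 RefSeq windows with the full 250 bases, 6.91% held it. The member counts were not cut at the annotated gene start, as the printed Fmn2 stretch is. Of the genes that hold it, Actr3, Arpc1a and Arpc3 were higher in blastocysts and Actr2 did not pass the test, while Arpc5, which lacks it, was higher by 29.4-fold. GGGCGG, the core bound by Sp1, was in 6 of the 8 windows, against 32.7% of all windows. CCAAT was in 3 of 8, against 33.8%. CACGTG was in that of Arpc5 alone, against 6.02% of all windows. The NRF1-type palindromic core was in that of Arpc2 alone, against 0.782%. TATAAA was in 0 of 8 windows, against 12.4%. These 6 motifs were searched on both strands and chosen with the sequences in view, so the counts are a description of these letters and not of any factor's binding.

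The first comparison asked how the RNAs of the nucleators differ between the embryo and the oocyte cytoplasm. Fmn2, Spire1 and Diap1 were lower in blastocysts by every probe that could be tested. In the Arp2/3 group Arpc1a and Arpc5 were far higher in blastocysts, Actr3 and Arpc3 were less than 2-fold higher, and Actr2 and Arpc2 did not pass. Of the 15 member probes, 13 entered the test, since all arrays of 1 stage or both read them well above background. The second Fmn2 probe and the first 2 Spire1 probes entered through ooplasts alone, and Arpc1a through blastocysts alone. For these probes the filter itself favoured the direction seen, so their direction adds no support of its own. Of these 13, 5 were higher and 6 lower in blastocysts, by limma with Benjamini-Hochberg adjustment at a threshold of 0.05 over 20968 probes. So 84.6% of the tested member probes passed. Over all tested probes 73.8% passed, 35.6% higher and 38.2% lower, so that passing as such does not set the members apart from the array. Every adjusted p for stage below is from this fit.

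**Figure D1:**
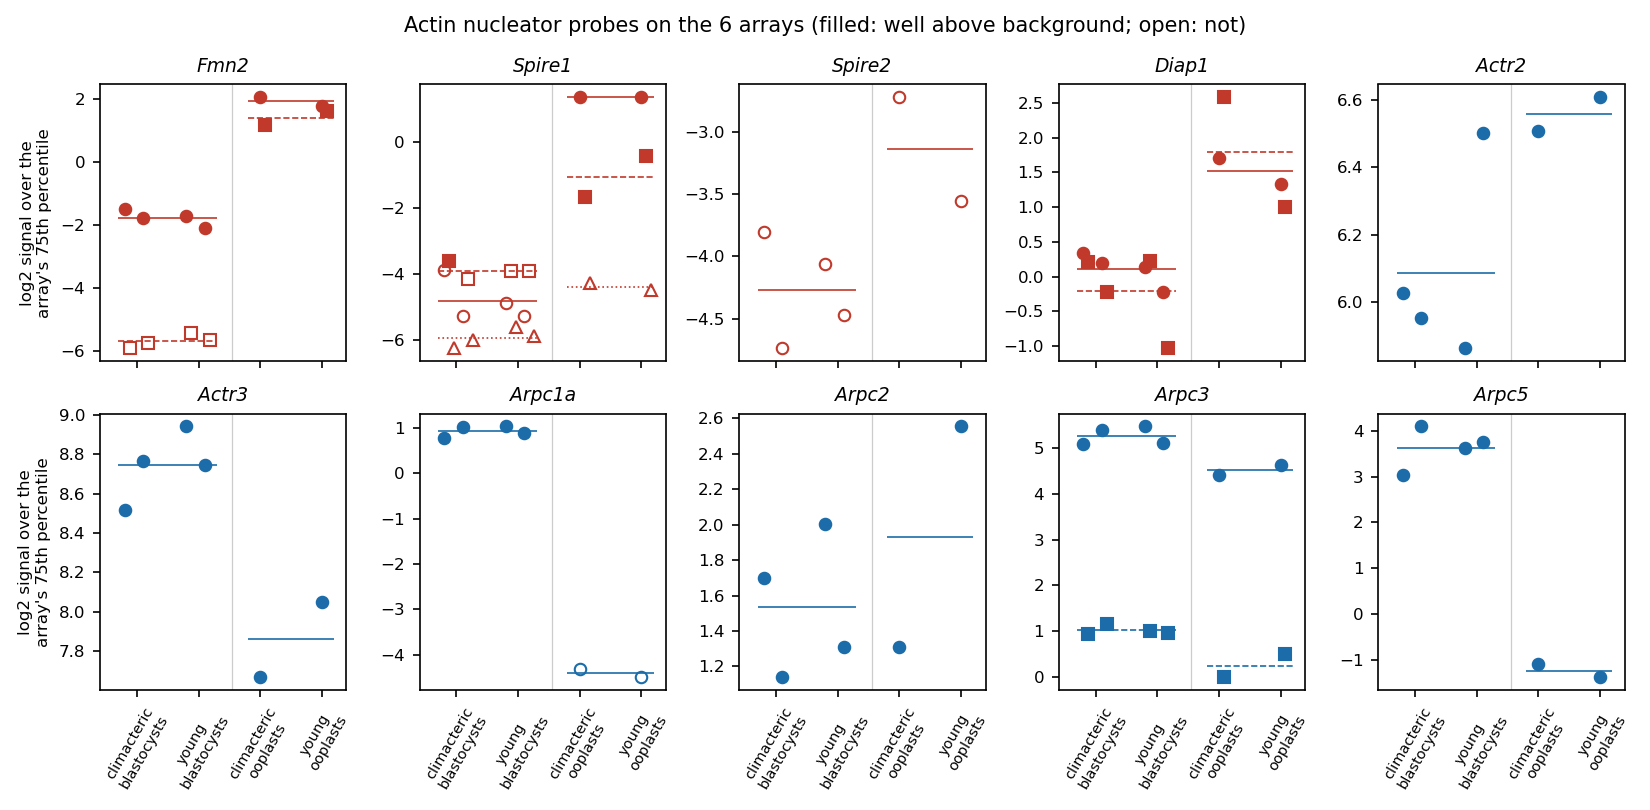
Level of each member probe on the 6 arrays, in log2 signal relative to the array's 75th percentile, with 1 panel per gene and a vertical scale of its own in each. Red marks the formin and Spire group and blue the Arp2/3 group, circles the first probe of a gene, squares and triangles its other probes, filled symbols probes well above background and open symbols those that were not. Horizontal lines are the means over the 4 blastocyst arrays and over the 2 ooplast arrays. Fmn2 stands at -1.77 in blastocysts and at 1.93 in ooplasts on its first probe, and Arpc5 at 3.63 and at -1.25.

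Fmn2, the formin of the oocyte's actin mesh, was read by 2 probes. The first, on the plus strand of chromosome 1 between 176446626 and 176449239 in mm8, was well above background on all 6 arrays. It stood at -1.50 and -1.77 in climacteric blastocysts, at -1.70 and -2.10 in young blastocysts, at 2.07 in climacteric ooplasts and at 1.80 in young ooplasts. All 4 blastocyst arrays lay far below both ooplast arrays, and the ages lay close together at each stage. Blastocysts averaged -1.77 ± 0.25 (SD over 4 arrays) and ooplasts 1.93 ± 0.19 (SD over 2 arrays). The fitted difference was -3.70 ± 0.27 (SE), which is 13.0-fold lower in blastocysts (adjusted p = 4.65e-05).

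The other Fmn2 probe lies 209085 bases further along the gene's strand, from 176658325 to 176658384. It stood at 1.19 in climacteric and 1.63 in young ooplasts and read no blastocyst array well above background, so blastocysts have only an upper bound there. It was at least 34.2-fold lower in blastocysts (adjusted p = 9.47e-06). A fold written "at least" compares the mean of the brighter stage with a floor for each dim array. That floor is the lowest signal among probes well above background on the array, or the probe's own signal where higher. It is not a strict limit of detection, so a fold written this way is approximate. On replicate 1 of the climacteric blastocysts Spire2 read -3.81 without being well above background, though the lowest such signal there was -3.97. The adjusted p beside such a fold is that of the fit on the signals as measured, background values included, and not a test of the bound. Both Fmn2 probes thus read a fall, and they differ in that the first still reads signal in blastocysts and the other does not. Which transcripts each probe reads was not tested.

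Spire1 works with Fmn2 on the vesicles from which the mesh is built. Its first probe, on chromosome 18 from 67614019 to 67614078 on the minus strand, stood at 1.37 in climacteric and 1.37 in young ooplasts, and no blastocyst array read it well above background. It was at least 32.8-fold lower in blastocysts (adjusted p = 4.10e-05). A further Spire1 probe stood at -3.61 and -4.16 in climacteric blastocysts and at -3.90 and -3.89 in young blastocysts, against -1.67 in climacteric and -0.41 in young ooplasts. It was above background on both ooplast arrays and on 1 of the 4 blastocyst arrays, and it differed by -2.85 ± 0.37 (SE, adjusted p = 0.000595), a size that includes the 3 arrays at background. Without young ooplasts that difference was -2.22, without climacteric ooplasts it was -3.48, and with normexp background correction it was -1.33. The third Spire1 probe, named for a cDNA clone, was well above background on no array.

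Spire2, the partner of Spire1 in the mouse oocyte, had 1 probe, on the plus strand of chromosome 8 between 126249473 and 126254791. It was well above background on no array, so its RNA was not detectable at either stage with this probe, and no fold is given.

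Diap1, the diaphanous formin, was lower in blastocysts too. Its first probe, on chromosome 18 from 37970816 to 37970875 on the minus strand, stood at 0.34 and 0.19 in climacteric blastocysts, at 0.14 and -0.23 in young blastocysts, at 1.70 in climacteric ooplasts and at 1.33 in young ooplasts. Every blastocyst array lay below both ooplast arrays, with no overlap. The difference was -1.41 ± 0.26 (SE), which is 2.65-fold lower in blastocysts (adjusted p = 0.0029). The other Diap1 probe stood at 0.22 and -0.22 in climacteric blastocysts, at 0.23 and -1.03 in young blastocysts, at 2.58 in climacteric ooplasts and at 1.00 in young ooplasts. It differed by -1.99 ± 0.47 (SE, adjusted p = 0.00812), and without climacteric ooplasts by -1.40, where the call was lost (adjusted p = 0.0992). Without young ooplasts it was -2.59.

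Of the Arp2/3 group, Arpc5 and Arpc1a were the genes with the largest rise. Arpc5 encodes the p16 subunit, and its probe lies on the plus strand of chromosome 1 from 154533635 to 154533694. It stood at 3.04 and 4.10 in climacteric blastocysts, at 3.62 and 3.77 in young blastocysts, at -1.10 in climacteric ooplasts and at -1.39 in young ooplasts. The 4 blastocyst arrays lay far above both ooplast arrays, and the ooplast arrays read the probe above background. The difference was 4.88 ± 0.36 (SE), which is 29.4-fold higher in blastocysts (adjusted p = 5.16e-05). With normexp background correction it was 4.19.

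Arpc1a encodes one of the alternative p40 subunits, the other being Arpc1b. Its probe, on the plus strand of chromosome 5 between 145360611 and 145361911, stood at 0.77 and 1.01 in climacteric blastocysts and at 1.03 and 0.89 in young blastocysts. On neither ooplast array was it well above background. It was at least 8.40-fold higher in blastocysts (adjusted p = 1.41e-05), and the mean of the 4 arrays was 0.93 ± 0.12 (SD).

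Actr3, which encodes Arp3, was read by 1 probe on the minus strand of chromosome 1 from 127220500 to 127220559. It stood at 8.52 and 8.77 in climacteric blastocysts, at 8.94 and 8.75 in young blastocysts, at 7.67 in climacteric ooplasts and at 8.05 in young ooplasts. The lowest blastocyst array lay above the higher ooplast array. The difference was 0.88 ± 0.26 (SE), which is 1.85-fold (adjusted p = 0.0190), and it was 1.59 to 1.74 when arrays were quantile normalized. The call was lost without young ooplasts (adjusted p = 0.0660), without climacteric ooplasts (0.118) and without replicate 2 of the climacteric blastocysts (0.0519), and also with the slide as a block (0.0533).

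Arpc3, the p21 subunit, had 2 probes on the plus strand of chromosome 5. The first, between 122665756 and 122666505, stood at 5.08 and 5.39 in climacteric blastocysts, at 5.47 and 5.10 in young blastocysts, at 4.41 in climacteric ooplasts and at 4.63 in young ooplasts. The blastocyst arrays all lay above the ooplast arrays. The difference was 0.74 ± 0.27 (SE, adjusted p = 0.0437). The other probe, between 122664005 and 122664760, differed by 0.77 ± 0.27 (SE, adjusted p = 0.0400). Both calls are narrow. The first was lost whichever of the 6 arrays was left out, with adjusted p of 0.0564 to 0.204, and the other was lost in each case except without young ooplasts. With the slide as a block the adjusted p was 0.0920 and 0.105.

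Actr2, which encodes Arp2, and Arpc2, which encodes the p34 subunit at the branch, did not pass. Actr2, on the minus strand of chromosome 11 from 19962390 to 19962449, stood at 6.03 and 5.95 in climacteric blastocysts, at 5.86 and 6.50 in young blastocysts, at 6.51 in climacteric ooplasts and at 6.61 in young ooplasts. Its blastocyst arrays lay below the ooplast arrays, by a margin that is small for young blastocyst replicate 2, and the difference was -0.47 ± 0.29 (SE, adjusted p = 0.179). In the authors' own normalized values that difference was 0.03. Arpc2, on the plus strand of chromosome 1 between 74188186 and 74189188, stood at 1.70 and 1.14 in climacteric blastocysts, at 2.00 and 1.31 in young blastocysts, at 1.31 in climacteric ooplasts and at 2.55 in young ooplasts. The stages overlapped, with a difference of -0.40 ± 0.38 (SE, adjusted p = 0.376), and without young ooplasts it was 0.11.

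**Figure D2:**
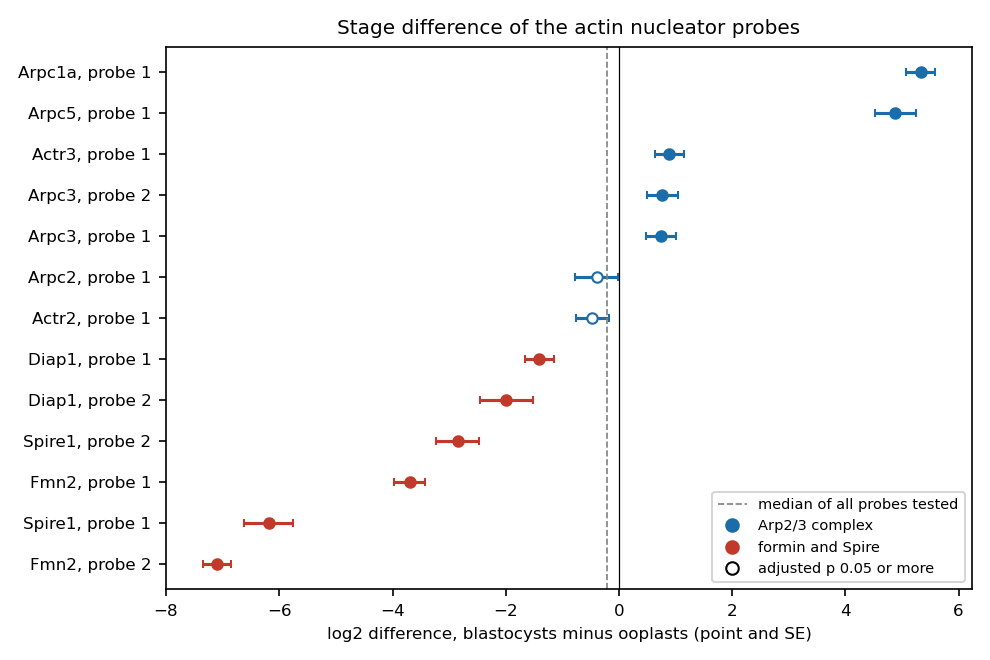
Fitted log2 difference, blastocysts minus ooplasts, for the 13 tested member probes, with SE bars from limma. Red is the formin and Spire group, blue the Arp2/3 group, an open circle an adjusted p of 0.05 or more, and the dashed line the median of all 20968 probes, -0.22. The 6 formin and Spire probes lie at -1.41 or below and the 7 Arp2/3 probes at -0.47 or above. The points of Arpc1a, of the first Spire1 probe and of the second Fmn2 probe include signals at background through a whole stage, and their bounds are in the text. That of the second Spire1 probe includes them on 3 of 4 blastocyst arrays.

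The median differences of the groups had opposite signs, while Actr2 and Arpc2, neither of which passed, were negative like the formin and Spire genes. The difference between the groups was not tested as such. It describes these members and not formins or Arp2/3 subunits at large. The 9 tested formins outside the members had a median of 1.72, with 5 higher and 2 lower, against 35.6% and 38.2% of all probes. Of 3 tested Arp2/3 subunits outside them, 1 was higher and 1 lower. With 1 probe per gene, the one with the highest mean over the 6 arrays, the median difference was 0.81 over the 6 Arp2/3 genes, of which 4 passed as higher and 0 as lower. Over the 3 measured formin and Spire genes it was -3.70, and 3 passed as lower. The -3.70 is the value of Fmn2 alone, and the 0.81 lies midway between Actr3 and Arpc3. Arpc1a and Spire1 lie further out even at their bounds, so putting them there could not move either median. The median of all tested probes was -0.22. Under the other 4 scalings the Arp2/3 median was between 0.60 and 1.22, the formin and Spire median between -3.92 and -3.18, and the median of all probes between -0.43 and -0.09, so the medians had opposite signs under each. Of the 4 Arp2/3 calls, those of Actr3 and Arpc3 are the ones lost under alternatives, as given above. By ranges, all 4 blastocyst arrays lay above both ooplast arrays for 5 member probes and below them for 7. Over the 20968 tested probes these ranges separated upward in 37.3% and downward in 41.8%.

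A log2 ratio taken within an array is not changed by shifting that array by a constant, as scaling on a percentile does, but it can change under quantile normalization or normexp. For each of the 6 Arp2/3 genes over each of Fmn2, Spire1 and Diap1, 17 of 18 ratios were higher on all 4 blastocyst arrays than on both ooplast arrays, the exception being Arpc2 over Diap1. Of these, 8 use Arpc1a or Spire1, which were at background through a whole stage and entered only through the other. The 10 ratios free of them gave 9, with mean changes between 0.93 for Actr2 over Diap1 and 8.58 for Arpc5 over Fmn2. Taking any tested probe over the same 3 gave that separation in 78.2% of 62901 ratios.

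The next comparison asked whether reproductive age moved these RNAs in blastocysts. With 2 arrays per age, 0 of the 10 member probes that could be tested passed limma with Benjamini-Hochberg adjustment, and 0% of 21631 probes did. At an unadjusted p under 0.05 there were 1211 probes and 0 of the members. Differences, climacteric minus young, were between -0.24 ± 0.40 (SE) for Arpc2 and 0.40 ± 0.50 (SE) for the second Diap1 probe, with adjusted p of 1.00. The first Fmn2 probe averaged -1.63 ± 0.19 in climacteric and -1.90 ± 0.28 in young blastocysts (SD, n = 2 each), a difference of 0.27 ± 0.32 (SE). Arpc5 averaged 3.57 ± 0.75 in climacteric and 3.69 ± 0.10 in young blastocysts, a difference of -0.12 ± 0.44 (SE). A p above the threshold does not show that the ages were alike. The Spire1, Spire2 and second Fmn2 probes did not enter this test, since none was well above background on both arrays of either age. The second Spire1 probe was so on replicate 1 of the climacteric blastocysts alone.

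In ooplasts each age has 1 array, so there is no test and no replicate check. Of 12 member probes read above background, 1 was at least 2-fold higher and 2 at least 2-fold lower in climacteric ooplasts. Over 18903 probes 25.2% were 2-fold apart, 11.3% higher and 13.9% lower. The second Diap1 probe was higher by 1.58 on the log2 scale, while the first differed by 0.37. The second Spire1 probe differed by -1.26, 2.40-fold lower, while the first Spire1 probe differed by 0.00. Probes of 1 gene therefore gave unlike sizes. Arpc2 differed by -1.25, 2.37-fold lower, with 1 probe. The scanner software's error of such a difference was 0.21 for Arpc2 and Diap1 and 0.32 for Spire1, and it covers the spot and not the animals.

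**Figure D3:**
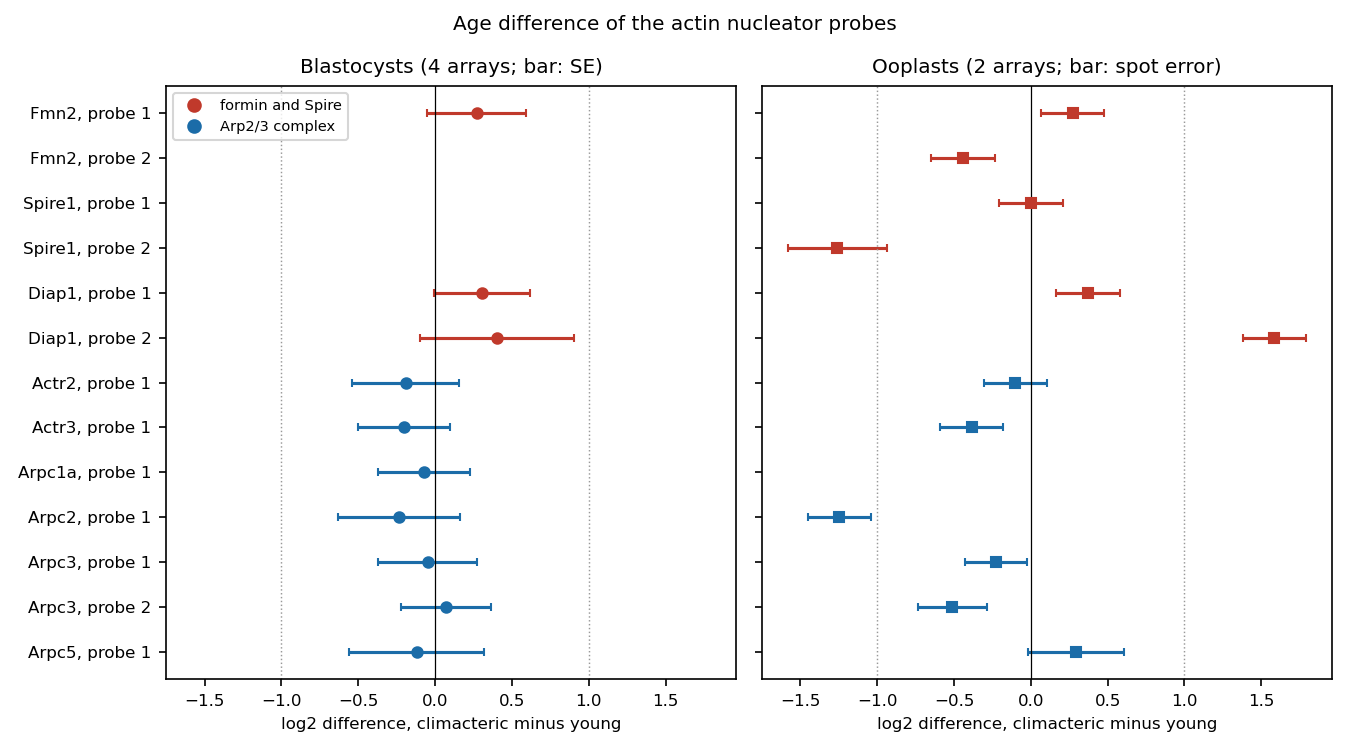
Log2 difference, climacteric minus young, of the member probes in blastocysts (left, 4 arrays, SE bars from limma) and in ooplasts (right, 1 array per age, bars from the scanner software's spot error). Red is the formin and Spire group and blue the Arp2/3 group, and dotted lines mark a 2-fold difference. All blastocyst differences lie between -0.24 and 0.40, and in ooplasts the second Diap1 probe, the second Spire1 probe and Arpc2 lie past 2-fold.

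The other ooplast differences of the members were smaller. Fmn2 differed by 0.27 on its first probe and by -0.44 on the other, Actr3 differed by -0.39, Actr2 by -0.10, Arpc3 by -0.23 and -0.51, and Arpc5 by 0.29. The median of all 18903 probes was 0.13. Macrophage and leucocyte markers differed between these arrays. Of 15 such genes 10 were above background in climacteric ooplasts, against 5 in young ooplasts, and their signals over the 75th percentile summed to 47.9 in climacteric and 4.37 in young ooplasts. Among blastocysts replicate 1 of the climacteric group had a sum of 42.5 with 11 of 15 above background, against 3.55 to 3.75 on the other 3 arrays. Of 10 such genes measured in ooplasts, 8 were at least 2-fold higher in climacteric ooplasts and 0 lower, against 11.3% and 13.9% of all probes. Lyz2 was higher by 8.42 and C1qc by 6.59, each above background in climacteric ooplasts alone, so those sizes depend on background. Ptprc and Itgam were not above background on either ooplast array. The part of leucocyte RNA in the age differences was not tested. The difference between the age effects in blastocysts and in ooplasts passed for 0 of the 13 member probes (limma, Benjamini-Hochberg), against 0.672% of 20968 probes (0.644% higher and 0.0286% lower), and at an unadjusted p under 0.05 for 0 member probes and 1642 probes in all.

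The rest of the actin system was read from 6 lists of named genes, which do not overlap the members and were chosen by hand. Each gene stands by 1 probe, the tested one with the highest mean over the 6 arrays, while the share over all probes counts every tested probe. Several of these genes have further probes, which are not given here. Beside their counts stands the share over all probes, 35.6% higher and 38.2% lower in blastocysts, taken under the same filter, and no list was tested against the array. Wipf1, Wipf3, Abi2, Coro1b, Coro1c, Cap1, Tmsb4x and Tmsb10 entered the test through blastocysts alone. Fhod3, Cyfip2, Coro2a and Cfl2 entered through ooplasts alone. For these genes, which are in the counts below, the filter itself favoured the direction seen. Of the 4 remaining Arp2/3 subunits, 3 were tested. Arpc5l, the close relative of Arpc5, was higher in blastocysts by 1.25 ± 0.27 (SE, adjusted p = 0.0058), a call lost without climacteric ooplasts (1.12, adjusted p = 0.0536). Arpc1b, the alternative to Arpc1a, was lower, at -1.36 ± 0.25 (SE, adjusted p = 0.0031). Arpc1a had the opposite sign, but it was at background in ooplasts and entered through blastocysts alone. Its direction therefore adds no support to a contrast between the 2 p40 genes. Arpc4 differed by 0.45 ± 0.39 (SE, adjusted p = 0.334), and Actr3b was not measured well enough. Arpc1b was well above background on all 6 arrays, at 7.38 to 7.76 in blastocysts and at 8.91 to 8.92 in ooplasts.

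Of 18 tested activators of Arp2/3, 6 were higher and 7 lower in blastocysts, with a median of -0.27, near the -0.22 of all probes. Wipf1, which binds WASP family proteins, was higher by 8.16, with 1 of 2 ooplast arrays above background, and by 9.15 without young and 7.16 without climacteric ooplasts. Washc1, of the WASH complex on endosomes, was higher by 3.45, and Cttn, the branch-binding cortactin, by 2.45. Wipf3 was at least 2.01-fold higher. Wipf2 was lower, at -5.17, but its ooplast arrays lay far apart, at 2.05 in climacteric and 7.45 in young ooplasts. Its difference was -2.80 without young ooplasts, -7.54 without climacteric ooplasts and -4.54 without young blastocyst replicate 1. Wasl, which encodes N-WASP, was lower at -4.35. Cyfip2 and Abi1, both of the WAVE complex, were lower at -3.71 and -2.06, Cyfip2 with 2 of 4 blastocyst arrays above background and at -3.10 without young and -4.31 without climacteric ooplasts. Adjusted p of these 8 genes was between 2.17e-05 and 0.00397.

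Of 9 tested formins outside the members, 5 were higher and 2 lower, against 35.6% and 38.2% of all probes, with a median of 1.72. Fmnl2 was higher by 5.75, Fhod1 by 4.82, Diaph2 by 2.61 and Fmn1 by 2.23. Without young ooplasts Fmnl2 was at 4.97 and Fmn1 at 1.64, and without climacteric ooplasts Fmnl2 was at 6.53 and Fmn1 at 2.82. Fhod3, a formin of the heart, was at least 71.6-fold lower in blastocysts, and Daam1 was lower, at -3.06. Of 3 other nucleators, Cobl, which joins actin monomers through its WH2 repeats, was lower, at -6.56, as was its relative Cobll1, at -3.00, while Lmod3 differed by 0.06 and did not pass.

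Proteins that restrain the Arp2/3 complex were mixed. Of 8 tested, 4 were higher and 2 lower, against 35.6% and 38.2% of all probes, with a median of 0.87. With an array left out 3 to 4 were higher and 1 to 2 lower. Pick1, described as an inhibitor of the complex, was higher by 3.70. Coro1c was at least 1.60-fold and Coro1b at least 1.99-fold higher, and Gmfb, a debranching factor, was higher by 1.07, a call kept without climacteric blastocyst replicate 1 and lost without any other array. Coro2a was lower, at -3.85, with 3 of 4 blastocyst arrays above background, and Coro2b at -1.28. The Coro2a call was lost without young ooplasts (-2.74), with -4.96 without climacteric ooplasts and -3.10 without young blastocyst replicate 1, and that of Coro2b was lost without climacteric ooplasts (-0.62), with -1.93 without young ooplasts.

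Of 19 tested genes of monomer supply, capping and turnover, 11 were higher and 3 lower, against 35.6% and 38.2% of all probes, with a median of 1.82. Actg1, which encodes cytoplasmic gamma-actin, was higher by 5.68. Tmsb4x and Tmsb10 encode thymosins that hold actin monomers. Tmsb4x was higher by 5.56, with 1 of 2 ooplast arrays above background and 4.75 without young and 6.37 without climacteric ooplasts, and Tmsb10 was at least 10.9-fold higher. Cap1, which recycles monomers, was at least 25.5-fold higher. Cfl2, a cofilin, was lower, at -3.55 with 3 of 4 blastocyst arrays above background. Limk1, a kinase of cofilin, was lower at -1.57 and Capza1, a capping subunit, at -1.05, a call lost without climacteric ooplasts (-0.84). None of the genes in the 6 lists passed for age in blastocysts.

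**Figure D4:**
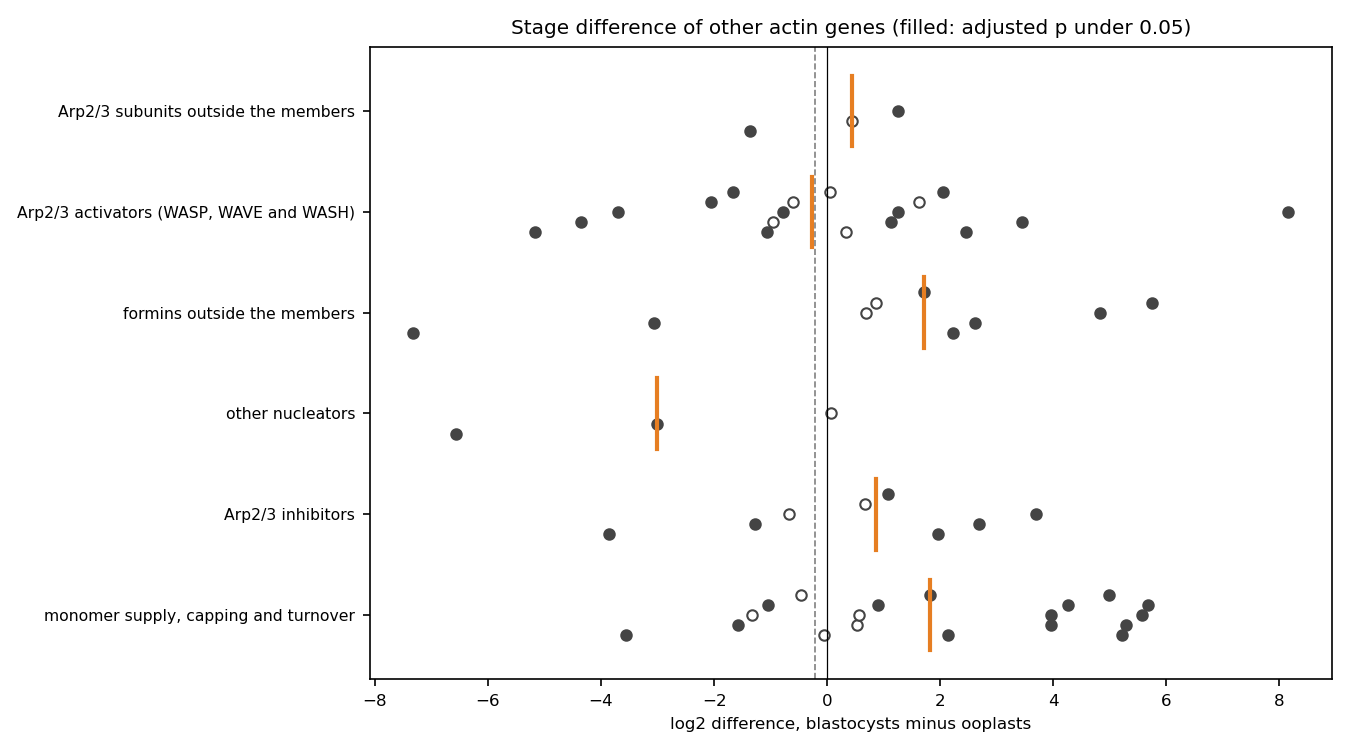
Log2 difference, blastocysts minus ooplasts, of the tested genes in 6 lists of actin genes outside the members, 1 point per gene, filled where the adjusted p was under 0.05. Orange bars are list medians and the dashed line is the median of all probes, -0.22. The list medians lie between -3.00 for other nucleators and 1.82 for monomer supply, capping and turnover, and each list except the other nucleators has called genes on both sides of 0.

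Some of these genes were 2-fold or more apart between the single ooplast arrays, where 25.2% of all probes were, 11.3% higher and 13.9% lower. Higher in climacteric ooplasts were 1 of 3 measured Arp2/3 subunits, 2 of 17 activators, 2 of 9 formins and 1 of 5 inhibitors. Lower were 3 of the 17 activators. Of 17 genes of monomer supply, capping and turnover, 2 were higher and 1 lower. No other nucleator was 2-fold apart, and the lists were not tested against the share. In climacteric ooplasts Arpc4 was higher by 1.35, Nckap1 of the WAVE complex by 2.51, Wasf1, which encodes WAVE1, by 1.66, Fmnl2 by 1.04, Diaph3 by 1.07, Coro2b by 1.05, Capzb by 1.10 and Tmsb4x by 2.19. Wipf2 differed by -5.40, Wipf1 by -2.33 and Dstn by -1.33. Nckap1, Wipf1 and Tmsb4x were above background on 1 of the 2 ooplast arrays, so those sizes depend on background. There is no replicate of either array, and the leucocyte marker difference given above applies to each.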

How the data were processed

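RNA of 6 samples was read on single-colour (Cy3) Agilent arrays. Per the file headers, the deposited intensity is a background-subtracted signal, with a surrogate near background for dim spots, not scaled between arrays. It was extracted with Agilent Feature Extraction 9.5, per the submitters' processing notes, and probes are placed on mm8. The authors also deposited a table of log2 values, which lay within 5e-07 of a quantile normalization of these signals on the linear scale, with a rank correlation of 1 with each array and a column median of 6.25.

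The processed signal was put on the log2 scale and the 75th percentile of the array, over its non-control spots, was subtracted. Control spots were left out, as were outlier-flagged spots of a probe that also had an unflagged spot. A probe with flagged spots only kept them. No member probe was saturated or an outlier. A probe entered a comparison where at least 1 compared group had it well above background throughout. limma 3.58.1 in R 4.3.3 (lmFit, eBayes, two-sided, Benjamini-Hochberg over all kept probes, threshold 0.05) fitted stage with age as a term over 6 arrays, age over the 4 blastocyst arrays, and the interaction, whose spread comes from blastocysts alone. The fits were first tested on simulated data. The series' text calls replicates biological without naming animals, and p-values therefore reflect only how these samples vary, which may be technical. The number of arrays limits the precision.

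Members, lists and motifs were chosen with earlier results of these data known. All 15 member probes are named. Of each list, counts are given, with up to 4 genes that passed in each direction and up to 4 that were 2-fold apart in ooplasts. Clone names were passed over. A further list is not reported here. Current names were looked up in RefSeq (GRCm38.p6). Exon and UTR placement was not analysed here, and 7 member probes are placed across more than 60 bases, where coordinates give the span.

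Replicate 1 of every group, ooplasts included, lay on slide 1 and replicate 2 on slide 2, so slide and replicate number coincide. Same-numbered blastocyst arrays deviated from their group means with a correlation of 0.14, and 2 pairs cannot show pairing. Alternatives were 4 other scalings, other filters, 1 probe per gene, the slide as a block, 1 slide or 1 age alone, and each array left out.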

Additional observations from a re-analysis of the deposited data

How the results depend on the processing

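The stage differences of Fmn2, the first 2 Spire1 probes, the first Diap1 probe, Arpc1a and Arpc5 kept their direction and their call under every alternative that could measure them, and no member's call turned round. Of these, the second Fmn2 probe, the first 2 Spire1 probes and Arpc1a entered through 1 stage alone. The filter favoured their direction, so its being kept adds no support. The 5 member probes called higher in blastocysts were 3 when arrays were scaled on probes well above background on all arrays, 3 in the authors' deposited values, 2 with the slide as a replicate block, 2 on slide 1 alone, 2 with young arrays alone, 2 with climacteric arrays alone and between 2 and 3 with an array left out. The lost calls were those of Arpc3 and Actr3. The 6 called lower were 3 where a probe had to be well above background on every array and 3 with 1 probe per gene, because fewer probes were tested, and without an array they were between 5 and 6. With 1 probe per gene the ooplast arrays had 0 member probes 2-fold higher and 1 lower in climacteric ooplasts. The block changed no call for age in blastocysts. Over all probes, the 8009 called lower in blastocysts were 21611 with no filter on dim probes, and the 7460 called higher were 3783 with every array above background. The 135 higher and 6 lower calls for stage by age were 0 and 0 under quantile normalization and in the authors' values, and 47 and 2 with no filter. The lower calls were 2 with normexp and with every array above background, and 10 with the block. Without either climacteric blastocyst array, or without young blastocyst replicate 1, both were 0. The ooplast arrays had 3664 probes at least 2-fold higher with no filter, against 2139, and 1146 higher and 1538 lower with both arrays above background, against 2139 and 2625. The cause was not tested. Single arrays per ooplast group limit what can be said of Arpc1a, Spire1 and Spire2. So do signals close to background, in ooplasts for Arpc1a, in blastocysts for Spire1 and at both stages for Spire2.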

Other observations

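The tested genes with the profile most like that of Fmn2 were Fam53c, Coq10b and Jph3, among 20967 probes compared over the 6 arrays. Likeness was the root mean square distance between log2 profiles centred on their own mean, and it was 0.08, 0.08 and 0.10 for the 3 genes. They differed between the stages by -3.58, -3.65 and -3.70, against -3.70 for Fmn2, and each was well above background on all 6 arrays. For Actr3 the nearest were Tgs1, Vps29 and Mki67, at 0.09, 0.10 and 0.10, with stage differences of 0.77, 0.84 and 0.90 against 0.88 for Actr3. Mki67 encodes the Ki-67 protein of dividing cells and Vps29 a retromer subunit. These are descriptions over 6 arrays, with no test.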
